A study of Mus musculus with 16 samples.

Results

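B cell identity transcription factor genes are the 10 genes Pax5, Ebf1, Bach2, Bcl6, Foxp1, Ikzf1, Ikzf3, Pou2af1, Spi1 and Spib, chosen by their mouse gene symbols. Their accessible chromatin was described in ATAC-seq peak lists, in which the Tn5 transposase marks open DNA. A region was placed at a promoter when its centre lay between 1000 bp upstream and 100 bp downstream of any annotated start of the gene, and was otherwise kept when it lay in the gene or within 10 kb of it. Joining the overlapping peaks of the 8 lists gave 16512 regions on chromosomes 1 to 19, X and Y. The 10 genes held 34 of these, 11 at their promoters and 23 elsewhere, and each gene had at least 1.

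The study examined the chromatin remodeler Brg1, encoded by Smarca4, in activated mouse B cells. The 8 libraries compared 4 from Brg1 fl/+ and 4 from Brg1 fl/fl mice, all C57BL/6 and all carrying 1 copy of CD23-Cre, which recombines floxed alleles in B cells only late in splenic maturation. The Brg1 fl/+ group thus also carried the Cre and 1 floxed allele, and no group without Cre was compared here. CD43 beads had been used to isolate the splenic B cells, which were then cultured with LPS (10 µg/mL) together with the cytokine IL-4 (20 ng/mL). A library used 50000 cells. The sample labels name 72 hours of culture, whereas the description of the series names 96 hours. The number of mice behind the 4 libraries of a genotype is not stated, so the p-values measure the spread between libraries, which may be technical. ATAC-seq of bulk cells cannot tell fewer cells with an open region from less opening per cell.

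Pax5 and Ebf1 are the factors that commit lymphoid progenitors to the B lineage and keep that fate. The ETS factors PU.1 (Spi1) and Spi-B (Spib), the zinc finger factors Ikaros (Ikzf1) and Aiolos (Ikzf3), Foxp1 and the coactivator OBF-1 (Pou2af1) act with them at B cell genes. Bcl6 and Bach2 are repressors that hold activated B cells in the germinal center program and away from plasma cell differentiation.

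The sequences shown are those of regions on which the results turn. Bcl6 region 1 and the upstream region 4 of Ikzf3 were the regions of these genes that were higher in Brg1 fl/fl libraries relative to shared promoters. Pax5 region 3 and Foxp1 region 4 had a peak in every library, and Bach2 region 8 had a peak in every Brg1 fl/+ library and in no Brg1 fl/fl library. Regions are numbered along the chromosome within each gene. All are on the plus strand of GRCm38 (mm10, read from the RefSeq genome sequence). For Pax5 (chr4:44704477-44704676), Foxp1 (chr6:99188588-99188787) and Bach2 (chr4:32588338-32588537) they cover 200 bp around the summit. For Bcl6 (chr16:23988853-23988997) and Ikzf3 (chr11:98550897-98551096) they show, of the region, the bases just before the first annotated exon, up to 200 bp. That exon belongs to Bcl6 in the first case and to the neighboring gene Zpbp2 in the second. Capitals mark matches to the motifs listed with the sequence features, and the Bach2 window holds no match.
Bcl6 promoter: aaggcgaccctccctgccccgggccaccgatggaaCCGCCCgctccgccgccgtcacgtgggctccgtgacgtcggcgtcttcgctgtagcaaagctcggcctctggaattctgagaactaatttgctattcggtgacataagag
Pax5 region 3: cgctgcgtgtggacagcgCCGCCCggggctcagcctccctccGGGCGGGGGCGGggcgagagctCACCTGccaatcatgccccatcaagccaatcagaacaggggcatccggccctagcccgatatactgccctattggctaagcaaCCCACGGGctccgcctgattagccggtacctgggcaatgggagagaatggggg
Ikzf3 region 4: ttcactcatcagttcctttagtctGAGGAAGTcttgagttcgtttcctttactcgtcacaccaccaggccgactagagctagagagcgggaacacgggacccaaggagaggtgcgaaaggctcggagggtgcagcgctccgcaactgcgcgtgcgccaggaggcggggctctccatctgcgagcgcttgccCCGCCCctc
Foxp1 region 4: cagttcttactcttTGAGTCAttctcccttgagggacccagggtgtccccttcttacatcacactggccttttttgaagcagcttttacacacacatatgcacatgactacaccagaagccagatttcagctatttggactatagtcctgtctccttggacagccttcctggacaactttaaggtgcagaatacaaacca
Bach2 region 8: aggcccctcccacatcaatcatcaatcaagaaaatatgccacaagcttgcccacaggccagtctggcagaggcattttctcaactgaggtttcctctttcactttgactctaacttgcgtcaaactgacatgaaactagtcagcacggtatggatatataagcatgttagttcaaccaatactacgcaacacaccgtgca

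Each list gives the fold of a peak's summit over the local background and its p-value, from which the number of fragments at the summit was recovered. This number was divided by a scale factor of the library, set so that promoter regions with a peak in all 8 libraries had the same median, and is called scaled summit fragments. The scale factors ran from 0.553 in Brg1 fl/fl replicate 2 to 1.95 in Brg1 fl/+ replicate 1, and the lists held from 6271 to 14614 peaks in the same libraries. A peak needed at least 5 to 8 fragments to be called, depending on the library. Absence from a list therefore means that no peak was called in that library, not that the region was closed.

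**Figure D1:**
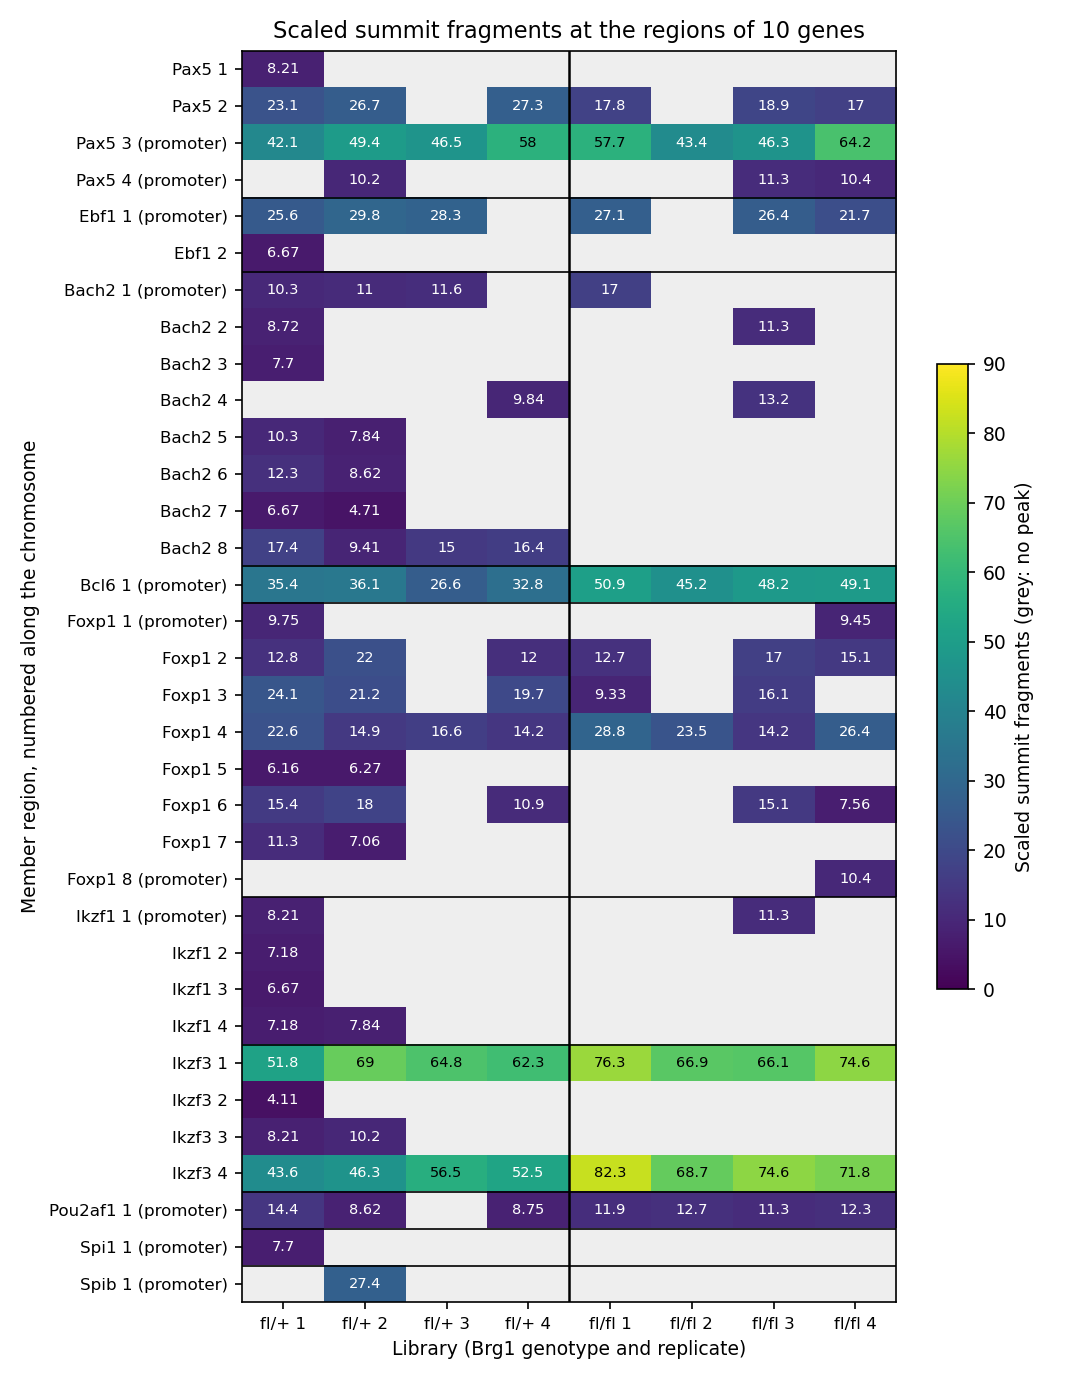
Scaled summit fragments (color and printed value, no unit beyond fragments) at each of the 34 regions (rows) in each of the 8 libraries (columns, Brg1 genotype and replicate), with grey where the list held no peak. Only Pax5 region 3, Bcl6 region 1, Foxp1 region 4 and Ikzf3 regions 1 and 4 are filled across all columns, and 7 regions are filled in the column of Brg1 fl/+ replicate 1 alone.

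Bcl6 was the member whose promoter rose in Brg1-deficient cells relative to other promoters, a direction that turned when libraries were scaled to their background. Its single region (chr16:23988536-23988997) covered the first exon, with the centre 85 bp past the gene start. Libraries 1 to 4 held 69, 46, 16 and 30 fragments at the summit in Brg1 fl/+, and 60, 25, 51 and 52 in Brg1 fl/fl. Scaled, these were 35.4, 36.1, 26.6 and 32.8 against 50.9, 45.2, 48.2 and 49.1, so that every Brg1 fl/fl library lay above every Brg1 fl/+ library. The means were 32.7 ± 4.32 and 48.3 ± 2.39 (SD, n = 4 each). The log2 difference was 0.56 (SE 0.143, limma with Benjamini-Hochberg adjusted p = 0.00707 over 4560 regions with a peak in every list). The adjusted p was 0.0198 when libraries 1 and 2 and libraries 3 and 4 were joined, as the names of the deposited lists group them.

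When each library was scaled to its own background instead, the median of all 4560 regions moved to -0.81 on the log2 scale, and the Bcl6 difference turned to -0.33 (limma, adjusted p = 0.0974). On the fold over local background as deposited, the Bcl6 difference was 0.30 and no longer passed (limma, adjusted p = 0.104).

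A region upstream of Ikzf3 also rose relative to other promoters, and its direction also turned with scaling to background. Ikzf3 region 4 (chr11:98550642-98551559) lay 5070 bp upstream of the Ikzf3 start, with its centre 4 bp from a start of the neighboring gene Zpbp2, which encodes a protein of sperm, so it is a promoter of that gene. In libraries 1 to 4 its summit held 85, 59, 34 and 48 fragments in Brg1 fl/+ and 97, 38, 79 and 76 in Brg1 fl/fl. Scaled, these were 43.6, 46.3, 56.5 and 52.5 against 82.3, 68.7, 74.6 and 71.8, and the genotypes did not overlap. The means were 49.7 ± 5.87 and 74.3 ± 5.82 (SD, n = 4 each), a log2 difference of 0.58 (SE 0.123, limma, adjusted p = 0.00128, and 0.0051 with libraries joined in pairs). Scaled to background, it turned to -0.31 (limma, adjusted p = 0.0563).

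Ikzf3 region 1 (chr11:98457560-98458281) lay 6981 bp past the end of Ikzf3 and 4132 bp from a start of Grb7, an adaptor protein gene. It held 101, 88, 39 and 57 fragments in Brg1 fl/+ and 90, 37, 70 and 79 in Brg1 fl/fl libraries. The scaled means were 62.0 ± 7.32 and 71.0 ± 5.25 (SD, n = 4 each), and the libraries of the genotypes overlapped. The log2 difference was 0.20 (95% interval -0.04 to 0.44) and did not pass (limma, adjusted p = 0.276). None of the start sites of Ikzf3 itself had a promoter region in any library when regions were placed by their centre. Its other 2 regions, in introns, had peaks in Brg1 fl/+ libraries 1 and 2 (region 3) or in library 1 alone (region 2). The centre of region 2 lay 214 bp past an Ikzf3 start.

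Pax5 had 4 regions, of which 2 were at promoters. Region 3 (chr4:44704216-44704865) lay 535 bp upstream of the start of a shorter Pax5 transcript, inside an intron of the longer ones and an exon of 5730488B01Rik, a transcript on the other strand. It held 82, 63, 28 and 53 fragments in Brg1 fl/+ and 68, 24, 49 and 68 in Brg1 fl/fl libraries, so the scaled values ran from 42.1 to 58.0 and from 43.4 to 64.2. The genotypes overlapped, with means of 49.0 ± 6.70 and 52.9 ± 9.76 (SD, n = 4 each). The log2 difference was 0.10 (95% interval -0.18 to 0.39, limma, adjusted p = 0.661). Scaled to background it was -0.79 (limma, adjusted p = 6.05e-05), near the median of all regions on that scale. The promoter of the longest transcript, region 4, was shallow, with a peak in Brg1 fl/+ library 2 and in Brg1 fl/fl libraries 3 and 4 at 10.2 to 11.3 scaled fragments. In the second intronic region, region 2, the 3 Brg1 fl/+ peaks at 23.1 to 27.3 lay above the 3 Brg1 fl/fl peaks at 17.0 to 18.9. That region could be compared only among regions with a peak in at least 2 libraries of each genotype, where its log2 difference was -0.49 and did not pass (limma, adjusted p = 0.127).

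The Ebf1 promoter (chr11:44616959-44618048), which is shared with the start of the transcript Gm37695, had a peak in 3 libraries of each genotype. Brg1 fl/+ libraries 1 to 3 held 50, 38 and 17 fragments there, and libraries 1, 3 and 4 of Brg1 fl/fl held 32, 28 and 23. The scaled values of 25.6 to 29.8 and of 21.7 to 27.1 overlapped (log2 difference -0.15, limma, adjusted p = 0.666). The other Ebf1 region, in an intron, had a peak in Brg1 fl/+ library 1 alone.

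Over its 8 regions, Bach2 had 16 peaks among the Brg1 fl/+ lists and 3 among the Brg1 fl/fl lists. By library these were 7, 5, 2 and 2 in Brg1 fl/+ and 1, 0, 2 and 0 in Brg1 fl/fl. Brg1 fl/+ libraries 1 and 2 had the longest lists. At its promoter (region 1, chr4:32238409-32239126) the summit held 20, 14 and 7 fragments in Brg1 fl/+ libraries 1 to 3, and 20 in Brg1 fl/fl library 1, the only Brg1 fl/fl list with a peak there. The scaled value in that library, 17.0, was above the 10.3 to 11.6 of the Brg1 fl/+ libraries. Over the 7 regions away from the promoter the Brg1 fl/+ lists held 13 peaks and the Brg1 fl/fl lists 2. Detection was also lower in Brg1 fl/fl over all regions outside promoters, at 26.9% per library on average against 39.4% in Brg1 fl/+. Whether the Bach2 counts differ from that was not tested. Of these 7 regions, 6 lay in introns and 1 lay 2344 bp past the end of the gene.

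The region past the end, Bach2 region 8 (chr4:32588109-32588795), was the member region split cleanly by genotype. Its summit held 34, 12, 9 and 15 fragments in Brg1 fl/+ libraries 1 to 4, which is 17.4, 9.41, 15.0 and 16.4 scaled, and no Brg1 fl/fl list held a peak. At the mean scaled level of 14.6, Brg1 fl/fl libraries 1 to 4 would hold 17.2, 8.06, 15.4 and 15.4 fragments, where 8, 6, 8 and 8 were the lowest numbers called at the background of those libraries. Of its bases, 54.9% are masked as repeats. It was 1 of 34 member regions, beside 0.406% of all 16512 regions with a peak in 4 Brg1 fl/+ and 0 Brg1 fl/fl libraries. No member region had the opposite split, which 0.17% of all regions had. The split was lost when peaks needed a -log10 q of at least 10, when each list was shortened to the 6271 best peaks, and when a peak had to cover 50% of the region.

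**Figure D2:**
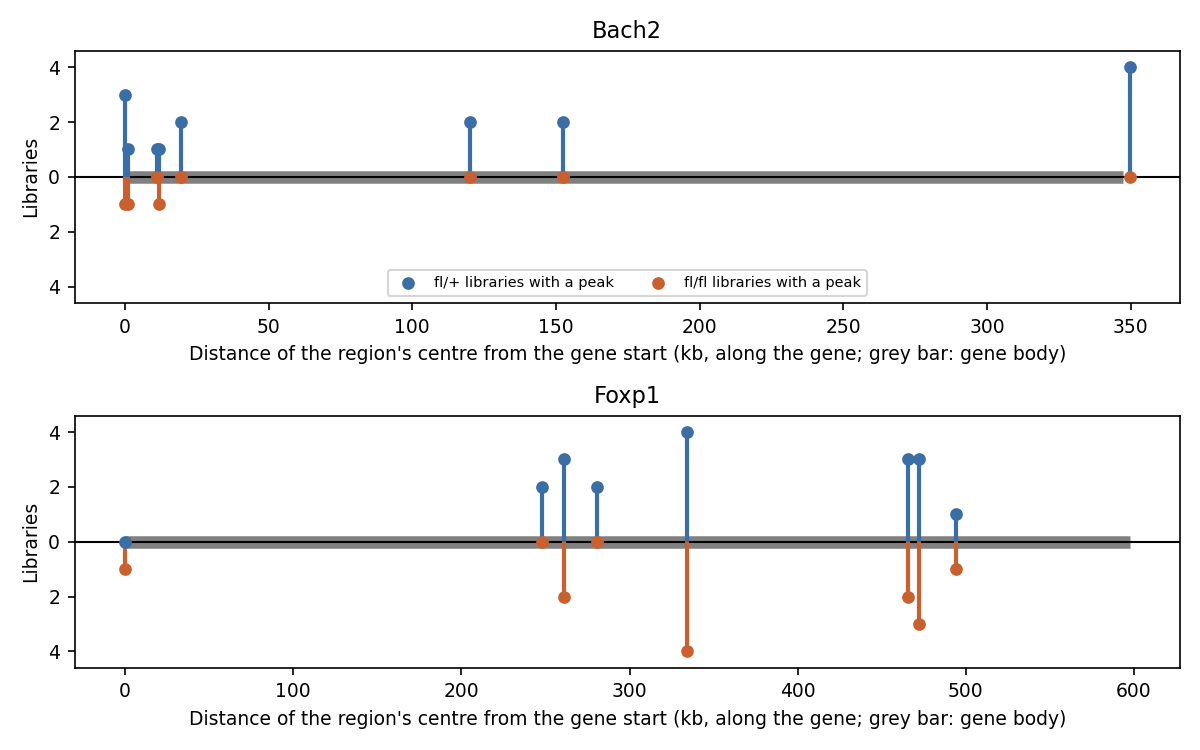
Number of libraries with a peak (vertical axis, Brg1 fl/+ upward in blue and Brg1 fl/fl downward in orange, 0 to 4 each) at each region of Bach2 and Foxp1, against the distance of its centre from the gene start in kb. In Bach2 the 4 regions farthest from the start have 2 or 4 blue libraries and 0 orange ones, whereas Foxp1 has 4 and 4 at its region 4.

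Foxp1, with 8 regions, had 18 peaks among the Brg1 fl/+ lists and 13 among the Brg1 fl/fl lists, and 6 of these regions were intronic regions away from its starts. Both promoter regions were shallow, and region 8, at the start of the longest transcript, had a peak in Brg1 fl/fl library 4 alone. Region 4 (chr6:99188271-99189092), in an intron, held 44, 19, 10 and 13 fragments in Brg1 fl/+ and 34, 13, 15 and 28 in Brg1 fl/fl libraries. The scaled values were 22.6, 14.9, 16.6 and 14.2 against 28.8, 23.5, 14.2 and 26.4, with library 3 of Brg1 fl/fl as low as the lowest of Brg1 fl/+. The log2 difference was 0.40 (95% interval -0.03 to 0.84) and did not pass (limma, adjusted p = 0.218). Region 3 (chr6:99057121-99057510) had 24.1, 21.2 and 19.7 scaled fragments in Brg1 fl/+ libraries 1, 2 and 4 against 9.33 and 16.1 in Brg1 fl/fl libraries 1 and 3. It entered only the wider comparison of 7923 regions with a peak in at least 2 libraries of each genotype, in which missing values were dropped, with a log2 difference of -0.77 (SE 0.269, limma, adjusted p = 0.0475). It no longer passed with libraries joined in pairs (limma, adjusted p = 0.0768) or without any 1 of Brg1 fl/+ libraries 1, 2 and 4 and Brg1 fl/fl libraries 1 and 4 (limma, adjusted p = 0.0543 to 0.484). Of the 11 member regions in that comparison, 1 was lower, beside 3.91% of all 7923 regions, and 2 were higher (Bcl6 and Ikzf3 region 4), beside 9.01%. Regions 2 and 6 had log2 differences of -0.01 and -0.39 there (limma, adjusted p = 0.988 and 0.422).

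The Ikzf1 promoter (chr11:11685724-11686289, shared with Gm11999) had a peak in Brg1 fl/+ library 1 and Brg1 fl/fl library 3 only, at 8.21 and 11.3 scaled fragments. At the 3 other Ikzf1 regions the Brg1 fl/+ lists held 4 peaks, all in libraries 1 and 2 at 6.67 to 7.84, and the Brg1 fl/fl lists 0. The Pou2af1 promoter (chr9:51213110-51213860) had a peak in 3 Brg1 fl/+ and 4 Brg1 fl/fl libraries. It held 28, 11 and 8 fragments against 14, 7, 12 and 13, or 14.4, 8.62 and 8.75 against 11.9, 12.7, 11.3 and 12.3 scaled (log2 difference 0.24, limma, adjusted p = 0.568). These values overlapped.

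The genes of the 2 ETS factors each had 1 region, seen in 1 library. Spi1 had a peak of 229 bp with 15 fragments, 160 bp upstream of an internal start, in Brg1 fl/+ library 1. Spib had a peak of 232 bp with 35 fragments, 77 bp upstream of its start, in Brg1 fl/+ library 2. At the scaled level of that Spib peak, 27.4, the other 7 libraries would hold 15.2 to 53.5 fragments. These lie above the lowest number called at the background of each library, which need not hold at the local background of this region. None of their lists held a peak there.

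Among the 5 member regions with a peak in every list, 0 of 5 were lower and 2 of 5 higher in Brg1 fl/fl by the limma test, beside 2.98% and 10.8% of all 4560 regions. In these 2 regions every Brg1 fl/fl value lay above every Brg1 fl/+ value, as in 12.8% of all 4560 regions. None of the 5 member regions showed the reverse, as 4.08% of all 4560 did. Pax5 region 2 and Foxp1 region 3, which lacked a peak in some lists, had every Brg1 fl/+ value above every Brg1 fl/fl value. The median log2 difference was 0.40 over the 5 member regions and 0.08 over all 4560, of which 0.07 over promoters and 0.20 outside them. A region had to have a peak in all 8 lists to enter this comparison, so that the 16 member regions without a Brg1 fl/fl peak could not. Of all calls, 78.4% were higher with the scaling used here, 62.8% with the deposited fold, 53.0% with quantile normalization and 0.354% with scaling to background.

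**Figure D3:**
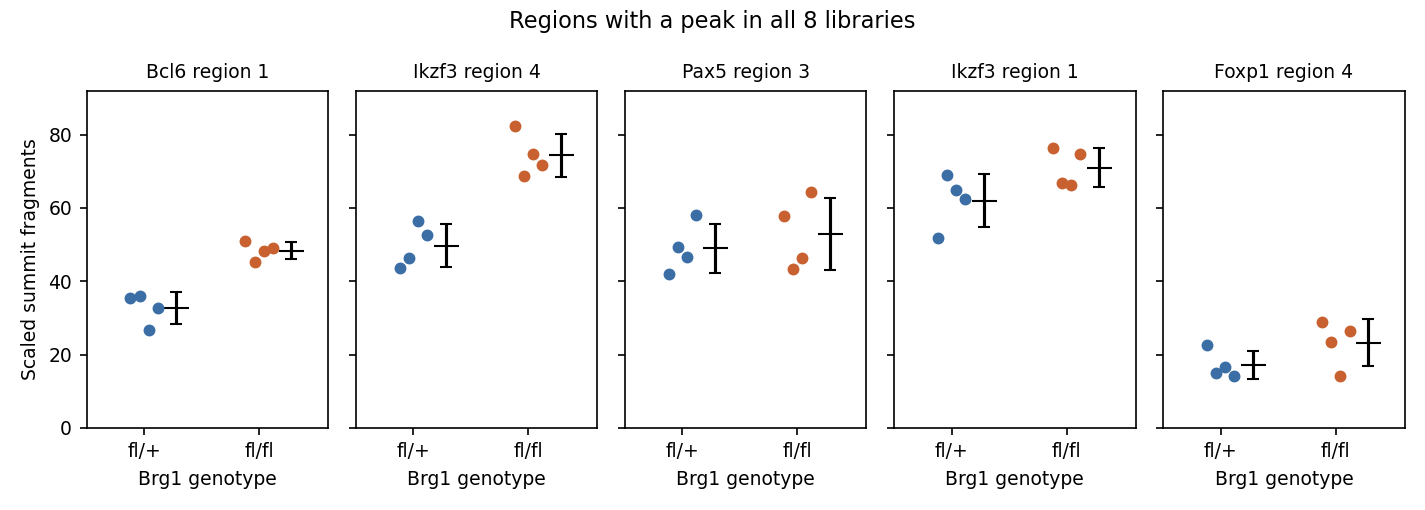
Scaled summit fragments (vertical axis, from 0) of the 5 member regions with a peak in all 8 libraries, 1 point per library, with the mean and SD (black, n = 4) for Brg1 fl/+ (blue) and Brg1 fl/fl (orange). The genotypes do not overlap at Bcl6 region 1 (means 32.7 and 48.3) and Ikzf3 region 4 (49.7 and 74.3), and overlap at the other 3, on a scale relative to promoters, and all 5 differences reverse when libraries are scaled to background.

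**Figure D4:**
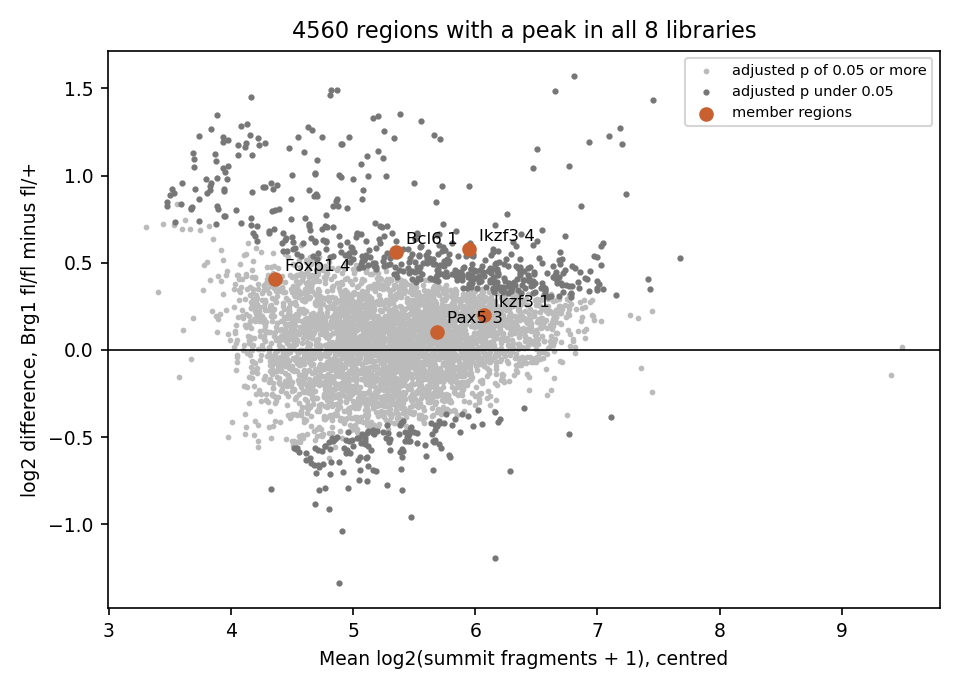
Log2 difference in summit fragments, Brg1 fl/fl minus Brg1 fl/+ (vertical axis), against the mean log2(summit fragments + 1) after centering (horizontal axis) for 4560 regions, with those at an adjusted p under 0.05 in dark grey and the 5 member regions in orange. Bcl6 region 1 (0.56) and Ikzf3 region 4 (0.58) lie within the band of dark grey points above 0, and Pax5 region 3 (0.10) lies in the middle of the cloud, all relative to promoters and all reversed when libraries are scaled to background.

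The share of member promoters with a peak differed between the genotypes by less than the spread between libraries, and so did the share of the other member regions, although the means of the latter lay further apart. Of the 11 promoter regions, 8, 7, 4 and 3 had a peak in libraries 1 to 4 of Brg1 fl/+ and 5, 3, 6 and 7 in those of Brg1 fl/fl. The means were 50.0% ± 21.6 and 47.7% ± 15.5 (SD, n = 4 each), a difference of -2.27 percentage points that was far smaller than either SD and compares with -9.52 over all 9328 promoter regions. Of the 11, 3 (27.3%) were detected by fewer libraries of Brg1 fl/fl than of Brg1 fl/+, beside 36.7% of all promoter regions, and 3 (27.3%) by more, beside 10.9%. All 8 libraries detected 2 of them (18.2%), against 42.7% of all promoter regions.

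Outside the promoters, libraries 1 to 4 of Brg1 fl/+ had a peak at 22, 15, 4 and 9 of the 23 regions and those of Brg1 fl/fl at 6, 3, 9 and 6. The genotypes overlapped, since Brg1 fl/+ library 3 lay below all but 1 of the Brg1 fl/fl libraries. The means were 54.3% ± 33.8 and 26.1% ± 10.7 (SD, n = 4 each), a difference of -28.3 points that was smaller than the SD among Brg1 fl/+ libraries, against -12.5 points over all 7184 regions outside promoters. Of the 23 regions, 16 (69.6%) had a peak in fewer Brg1 fl/fl libraries, beside 60.8% of all regions outside promoters, and 0 in more, beside 24.2%. All 8 libraries detected 3 of them (13.0%), beside 8.37%. The 23 include the promoter regions of Zpbp2 (Ikzf3 region 4, in all 8 libraries) and Bach2it1, whereas the 7184 regions exclude promoters of every gene. No Brg1 fl/fl library had a peak at 14 of the 23. That count was not made over all regions outside promoters, so it cannot be read as particular to these genes. Of all those regions, a Brg1 fl/fl library detected 26.9% on average.

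List length moved with these counts. Of the 14 regions without a Brg1 fl/fl peak, 6 were seen only in Brg1 fl/+ library 1, the longest list, and without that library 8 remained. A further 7 were seen in Brg1 fl/+ libraries 1 and 2 alone, at 4.71 to 12.3 scaled fragments. At their mean level the Brg1 fl/fl libraries would hold 3.15 to 12.3 fragments, under the lowest number called in every Brg1 fl/fl library for 2 of the 7 regions and in 1 or more of them for all 7. They would be at or above it in 3 of the 4 Brg1 fl/fl libraries for 4 of the 7 regions and in 1 library for 1 more. Of the 6 regions seen only in Brg1 fl/+ library 1, 5 would likewise reach the lowest number called in 2 to 5 of the other libraries. When each list was shortened to 6271 peaks, as many as the shortest holds, 7 regions outside promoters were left, the difference was -10.7 points, and 1 region had no Brg1 fl/fl peak. Relative to its scale factor, the background was higher in every Brg1 fl/fl library than in every Brg1 fl/+ library. In Brg1 fl/+ libraries 1 to 4 it was 1.3, 0.806, 0.541 and 0.735 fragments (scale factors 1.95, 1.28, 0.602 and 0.914). In those of Brg1 fl/fl it was 1.67, 0.783, 1.46 and 1.38 (scale factors 1.18, 0.553, 1.06 and 1.06). Whether depth or background accounts for the difference was not tested.

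In median base content the 11 promoter regions were close to promoters at large, but they were a mixed set. Their ratio of observed to predicted CpG ran from 0.093 at Spib and 0.276 at Spi1 to 1.12 at Foxp1 region 8. Their median GC content was 64.7%, with a ratio of observed to predicted CpG of 0.801, and those of all promoter regions were 65.1% and 0.817. The 23 other regions had a median GC content of 48.3% and a CpG ratio of 0.285, against 53.2% and 0.306 for all regions outside promoters. Of these 23 regions, 2 lay in the promoter window of another gene (Zpbp2 and Bach2it1).

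Motifs were counted in 200 bp around the summit on both strands, as exact letters and as a description only. The EBF motif (CCCNNGGG) was found in 5 of 11 member promoters (45.5%, beside 14.9% of all promoter regions), those of Pax5 region 3, Foxp1 region 8, Ikzf1, Spi1 and Spib. The E2A motif CAGGTG was found in 4 of 11 (36.4%, beside 10.3%) and the SP motif (CCGCCC) in 8 of 11 (72.7%, beside 68.0%). Outside promoters, the AP-1 motif (TGANTCA) was found in 5 of 23 (21.7%, beside 8.03% of all regions outside promoters), namely Pax5 region 2, Bach2 regions 2, 4 and 7 and Foxp1 region 4. The second E2A motif (CAGCTG) and CAGGTG were each found in 5 of 23 (21.7%, beside 13.5% and 16.6%). CAGCTG was in 0 of 11 member promoters (beside 9.44%) and the AP-1 motif in 0 of 11 (beside 2.36%). The ETS core (CGGAAG) was in 1 of 11 member promoters (9.09%, beside 30.5% of all promoter regions) and in 3 of 23 other regions (13.0%, beside 14.2%). RUNX (TGTGGT) was in 0 of 11 (beside 6.98%) and 3 of 23 (13.0%, beside 16.6%), and Ikaros (TGGGAA) in 1 of 11 (9.09%, beside 12.7%) and 3 of 23 (13.0%, beside 12.2%). Neither OCT (ATGCAAAT) nor PU.1 (GAGGAAGT) was in a member promoter (beside 1.27% and 2.36%), and they were in 2 and 1 of the 23 other regions (8.70%, beside 2.86%, and 4.35%, beside 3.78%). Outside promoters, EBF and SP were each in 4 of 23 (17.4%, beside 13.0% and 21.6%). NF-kB (GGGANTTTC), interferon response (GAAANNGAA), BCL6 (TTCCTAGAA), BACH (GCTGAGTCA, which contains an AP-1 match), E2F (GGCGGGAA) and NRF1 (GCGCATGCG) were found in none of the 34 windows, beside 0.139% to 3.88% of all promoter regions and 0.237% to 5.51% of all others. The windows printed for Bcl6 and Ikzf3 region 4 lie partly or wholly outside the summit windows, so the PU.1 match shown for Ikzf3 is not in these counts.

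Set beside other genes, 2 of the 10 members (Pax5 and Bcl6) had a promoter region with a peak in all 8 libraries, as did 20.6% of 21911 protein-coding genes. Only 1 (Ikzf3) had none in any library, against 56.9% of all. Of 25 other transcription factor genes of the B lineage, 10 had a promoter peak in all 8 libraries, 12 in 1 to 7 and 3 in none. The promoters of these 10 had a median log2 difference of -0.03, with 1 lower and 0 higher, beside 2.98% and 10.8% of all 4560 regions. The 1 was Irf8, a factor of B cell and myeloid development, at 33.9, 32.9, 29.9 and 36.1 scaled fragments in Brg1 fl/+ against 25.4, 27.1, 22.7 and 17.0 in Brg1 fl/fl libraries (log2 difference -0.52, SE 0.176, limma, adjusted p = 0.0415). That call did not pass with libraries joined in pairs (limma, adjusted p = 0.0825) and was lost when any 1 of libraries 1, 2 and 4 of Brg1 fl/+ or 1, 3 and 4 of Brg1 fl/fl was left out (limma, adjusted p = 0.0567 to 0.175). Irf8 did pass with the deposited fold (limma, adjusted p = 0.0148) and with quantile normalization (limma, adjusted p = 0.0395). Scaled to background, its difference stayed negative at -1.41, where the median of all regions was -0.81. With the scaling used here, the next largest differences were -0.37 at Ets1 and 0.33 at Klf3 (limma, adjusted p = 0.165 and 0.111).

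Among the 4 transcription factor genes of plasma cells, the promoter of Zbtb20 had a peak in all 8 libraries (log2 difference 0.25, limma, adjusted p = 0.107). Irf4 had a promoter peak in 2 libraries of each genotype. Prdm1, which encodes Blimp-1, had one in 2 Brg1 fl/+ and 0 Brg1 fl/fl libraries, and Xbp1 in 2 and 4. Of 14 transcription factor genes of other lineages, 12 had no promoter peak in any library, and the others were Gata3 in 2 and 1 libraries and Cebpa in 1 and 0.

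**Figure D5:**
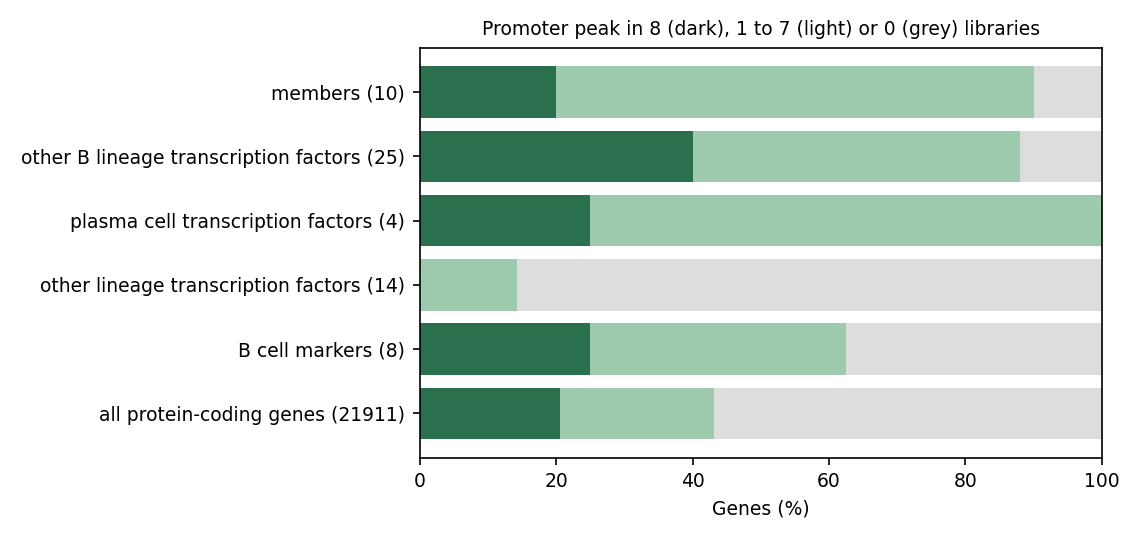
Share of genes (horizontal axis, percent, from 0) of each list, with the number of genes in parentheses, whose promoter had a peak in all 8 (dark green), 1 to 7 (light green) or 0 (grey) libraries. The 10 members have 2, 7 and 1 genes in these classes, and grey takes up most of the bar of other lineage factors (12 of 14).

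Of 8 B cell marker genes, Ms4a1 and Cd74 had a promoter peak in all 8 libraries, 3 others in 1 or 2 libraries, and Cd79b, Cd22 and Blk in none. Of 8 T cell markers, 7 had none, and Lck had one in 1 library, while all 6 myeloid, 3 NK and 3 erythroid markers had none. The Smarca4 promoter had a peak in all 8 libraries with a log2 difference of 0.33 (SE 0.115, limma, adjusted p = 0.0489), which turned to -0.56 with scaling to background. It did not pass with libraries joined in pairs (limma, adjusted p = 0.11), with the replicate block (0.0596) or without any 1 of the same 6 libraries as for Irf8. Nor did it pass with the deposited fold (limma, adjusted p = 0.133), centering on all regions (0.076), quantile normalization (0.34) or the wider comparison (0.0558). Which part of the gene is floxed is not given in the sources used here, so this does not check the deletion. Over shared promoters, libraries of 1 genotype differed by about the sampling noise (dispersion 0.757 to 1.22, where 1 is counting noise alone) and those of different genotypes by 1.02 to 1.91. Each library was counted as 1, and adjusted p-values with libraries joined in pairs are given for the named calls.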

How the data were processed

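ATAC-seq was analysed in the 8 libraries, grouped by the genotype and replicate in the sample labels, and 8 RNA-seq libraries were not analysed here. Bowtie2 (alignment to mm10) and MACS2 (peak calling, 1 list per library) had been run by the authors. Their versions, options and treatment of duplicate reads are not given in the sources used here. The deposited lists give each peak's fold over local background (a ratio) and its −log10 p and −log10 q, with no counts. The fragments at a summit and the background were solved from the fold and the −log10 p to within 0.002, which gave whole numbers for 99.7% to 99.8% of peaks. Duplicates and several summits of 1 region can affect these numbers.

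Overlapping peaks were joined, and a list detected a region when a peak overlapped it by at least 1 bp. Starts were those of GENCODE vM21. log2(summit fragments + 1) was centered in each library on promoter regions with a peak in every list, and the genotypes were compared with limma 3.58.1 (trend) in R 4.3.3, with Benjamini-Hochberg adjustment over all regions and a threshold of 0.05. The study's coverage comparison with DESeq2 was not repeated. It reported more peaks with reduced than with increased accessibility in Brg1-deficient cells, whereas most calls here were higher with the scaling used. The 2 comparisons differ in measure, scaling and set of regions. Scaled values and SDs rest on 4 libraries per genotype, and all numbers carry counting error from member summits of 6 to 101 fragments. The members, gene lists, motifs and tests were chosen with earlier results of these data known. All 10 members are described. Of the B cell markers, 1 is not reported here. Values per library are given for regions that passed, were split 4 against 0, or had the 3 largest differences in a direction. A listed gene is named where its promoter passed, together with the 2 next largest differences. Motif windows were 200 bp.

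The alternatives were the deposited fold, 3 other scalings, a fit with missing values, a replicate block, joining of libraries in pairs, each library left out, −log10 q of at least 5 or 10, lists of equal length, 50% cover, regions within 500 bp joined, other promoter windows and flanks. Assignment to promoters by overlap, the checks on regions without a Brg1 fl/fl peak and those on Irf8, Smarca4 and Foxp1 region 3 were added after the data were seen. On simulated data with 4560 regions, 84.5% of 200 regions changed 2-fold were called, and 3.98% of the 176 calls were false. Figures were drawn with matplotlib 3.10.9, sequences read with pysam 0.24.0, and tables handled in Python 3.11.15 (scipy 1.17.1, pandas 2.3.3, numpy 2.4.6).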

Additional observations from a re-analysis of the deposited data

How the results depend on the processing

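Scaling to the background of each library turned the direction of all 5 member regions with a peak in every list: -0.79 at Pax5 region 3, -0.33 at Bcl6, -0.49 at Foxp1 region 4, -0.69 at Ikzf3 region 1 and -0.31 at Ikzf3 region 4 (log2), as well as -0.56 at Smarca4. It called 3 member regions lower and 0 higher, and 4220 of all regions lower and 15 higher, in place of 136 and 494. The deposited fold called 167 regions higher and 1 member region, and quantile normalization 223. Regions with a peak in at least 2 libraries of each genotype gave 310 lower and 714 higher, with 1 member region lower and 2 higher. With libraries joined in pairs 76 were lower and 319 higher. Leaving out 1 library gave 75 to 130 regions lower and 334 to 499 higher, with fewest lower without Brg1 fl/fl replicate 1 (75), Brg1 fl/+ replicate 2 (85) and replicate 4 (90), and 0 and 2 member regions each time. Bcl6 then kept an adjusted p (limma) of 0.0099 to 0.0292.

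Same-numbered libraries did not deviate together (correlations of -0.062 to -0.007). Libraries of the same genotype differed by about the sampling noise, so these correlations cannot tell whether the numbers pair the libraries. The replicate block gave 136 lower and 455 higher, -2.27 points at member promoters and -28.3 points elsewhere, and changed no call of a member.

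The region split 4 against 0 was lost (0) with a -log10 q of at least 10, lists of equal length and 50% cover. The difference in detection at member promoters ran from -9.85 to 5.83 points with 1 library left out and was 9.09 with 50% cover, so it has no stable sign. Elsewhere it ran from -40.6 to -19.6. Regions without a Brg1 fl/fl peak numbered 8 to 16 with 1 library left out (8 without Brg1 fl/+ replicate 1) and 1 with lists of equal length. At the lowest background of each library, some shallow regions would fall under the lowest number of fragments called in the shallower libraries. Bach2 region 8 and the Spib peak would lie above that number, which need not hold at the local background of those regions. The part of depth or background in the detection results was not tested.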
